A study of Homo sapiens with 4 samples.

Results

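The 10 mature miRNAs of the miR-199, miR-214, miR-143 and miR-145 genes were taken by name from the 2656 human mature miRNAs counted in hESC-derived cortical interneurons, and all 10 were present in the count table. The members were hsa-miR-199a-5p, hsa-miR-199a-3p, hsa-miR-199b-5p, hsa-miR-199b-3p, hsa-miR-214-3p, hsa-miR-214-5p, hsa-miR-143-3p, hsa-miR-143-5p, hsa-miR-145-5p and hsa-miR-145-3p. The interneurons were differentiated from H1, an established human embryonic stem cell line, so every library comes from a single genetic background. Ethanol-exposed cells spent 7 days in neuronal maturation medium with ethanol at around 50 to 100 mM, and unexposed cells spent 7 days in that medium alone. The cells were collected after a further day in which ethanol was left out. Each group had 2 libraries, and whether the duplicates came from separate differentiations is not given in the sources used here, so the P values measure only the spread between these libraries. The comparison asks whether a week of ethanol changed the level of these miRNAs in cultured human interneurons.

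miRNAs are short RNAs cut from a hairpin precursor, whose left and right arms give the 5p and 3p strands. Usually one arm is kept in the silencing complex and guides it to messenger RNAs, mainly through the seed, the bases near its 5′ end. The miR-199 and miR-214 genes are known for their activity in mesenchyme, fibroblasts and the developing skeleton, and miR-143 and miR-145 for smooth muscle and other contractile or fibroblast-like cells. All are generally scarce in neurons, and miR-145-5p and miR-143-3p are transcribed together from CARMN, a long noncoding RNA gene.

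The precursor genes lie at 4 places on GRCh38 (GENCODE 29). MIR143 (149428918 to 149429023) and MIR145 (149430646 to 149430733) lie on the plus strand of chromosome 5, 1622 bases apart, MIR143 within an exon and MIR145 within an intron of CARMN. MIR214 (172138798 to 172138907) and MIR199A2 (172144535 to 172144644) lie 5627 bases apart on the minus strand of chromosome 1, both in exons of the noncoding gene DNM3OS and both opposite an intron of DNM3. MIR199A1 (10817426 to 10817496, chromosome 19) lies opposite an intron of DNM2, and MIR199B (128244721 to 128244830, chromosome 9) opposite an intron of DNM1. The dynamin genes DNM1, DNM2 and DNM3 encode GTPases that pinch off membrane vesicles.

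RefSeq (GRCh38.p14) gave the mature sequence of 9 of the 10 members, which come to 8 distinct sequences. hsa-miR-199b-5p was not matched. The sequences are shown 5′ to 3′ because identity between copies decides what the counts can say, with the seed (bases 2 to 8) in capitals.

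hsa-miR-199a-3p (chr1:172144554-172144575, minus strand, and a copy on chromosome 19): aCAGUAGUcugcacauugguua

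hsa-miR-199b-3p (chr9:128244745-128244766, minus strand): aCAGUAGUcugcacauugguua

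hsa-miR-199a-5p (chr1:172144592-172144614, minus strand, and a copy on chromosome 19): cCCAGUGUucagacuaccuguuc

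hsa-miR-214-3p (chr1:172138816-172138837, minus strand): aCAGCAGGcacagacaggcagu

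hsa-miR-214-5p (chr1:172138857-172138878, minus strand): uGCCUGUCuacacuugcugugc

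hsa-miR-143-3p (chr5:149428978-149428998, plus strand): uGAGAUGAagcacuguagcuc

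hsa-miR-143-5p (chr5:149428944-149428965, plus strand): gGUGCAGUgcugcaucucuggu

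hsa-miR-145-5p (chr5:149430661-149430683, plus strand): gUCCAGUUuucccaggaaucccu

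hsa-miR-145-3p (chr5:149430699-149430720, plus strand): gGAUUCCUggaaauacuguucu

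These 9 members carry 8 seeds, since miR-199a-3p and miR-199b-3p share theirs and no other pair among the 9 does. The seed of miR-199b-5p was not compared with these, since its sequence was not matched. Among the 2367 named miRNAs of the table with a RefSeq sequence, 5 others had a seed of this set. With the seed of miR-199-3p, miR-3129-5p had 1 to 6 counts per library. With that of miR-214-3p, miR-3619-5p had 2 or 3 counts and miR-761 had 0, and with that of miR-143-3p, miR-4770 and miR-6088 had 0 counts in each library. For the seeds of miR-143-3p and miR-199-3p, the members therefore held nearly all of the reads counted under a matched name.

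Depth was 22223060 and 24858230 counts per library with ethanol against 13941795 and 12100425 without it, so the deeper libraries were the exposed ones, and depth and exposure cannot be told apart. A level of 3 counts, taken as the smallest distinguishable from 0, was 0.121 to 0.248 counts per 1000000 (CPM). Levels are CPM scaled by TMM, edgeR's correction for library composition, unless called a share of the library, and were not scaled by miRNA length. Intervals are 95% Wilson intervals and, like the floor, cover counting error only. As these are bulk samples, fewer cells of a type and less RNA per cell cannot be told apart.

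miR-199a-3p and miR-199b-3p have the same 22 bases, and their counts were a fixed division of the same reads. miR-199a-3p had 726 and 567 counts with ethanol against 373 and 281 counts without it. The counts of miR-199b-3p were 363 and 283 with ethanol against 187 and 140 without it. In all 4 libraries these values lay within 0.5 counts of a division of the sum by the number of genes, 2 for miR-199a-3p and 1 for miR-199b-3p. In exposed replicate 2, for example, 850 reads divided in this way give 566.67 and 283.33. The pair miR-365a-3p and miR-365b-3p, named here for comparison after the counts were seen, share a mature sequence with 1 gene each and had equal counts in each library, such as 251 and 251 in exposed replicate 1. The counts thus hold no information on whether MIR199A1, MIR199A2 or MIR199B gave the miR-199-3p reads, and miR-199a-3p and miR-199b-3p are 1 measurement.

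Taken as 1 sequence, miR-199-3p had 1089 and 850 counts with ethanol against 560 and 421 counts without it. Its level was 43.2 and 34.9 CPM with ethanol against 47.5 and 32.7 CPM without it, so that both exposed values lay between the unexposed ones. That order held after TMM scaling only. As shares of the library the values were 49.0 and 34.2 CPM with ethanol against 40.2 and 34.8 CPM without it, where the exposed ones were the highest and the lowest. Fitted on the summed counts, which was decided once the counts were known, the log2 fold change of exposed over unexposed cells was -0.038 (standard error 0.28).

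**Figure D1:**
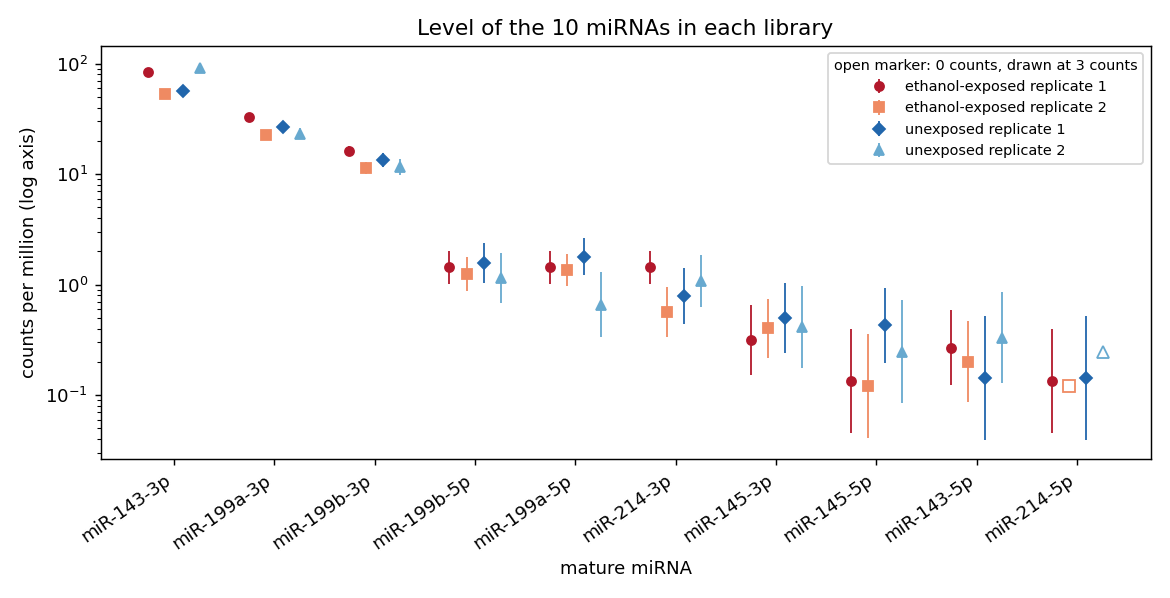
Share of each library's counts, in CPM on a log axis, taken by each of the 10 miRNAs, ordered by mean level. Each marker is 1 library with its 95% Wilson interval, and open markers are libraries with 0 counts, drawn at 3 counts. miR-143-3p stands highest in all 4 libraries, and miR-145-5p and miR-214-5p lie at or near 3 counts.

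The 10 miRNAs spanned from 70.97 CPM for miR-143-3p, averaged over the 4 libraries, to 0.072 CPM for miR-214-5p. miR-143-3p, reported in smooth muscle and fibroblasts, had 1888 and 1335 counts with ethanol against 794 and 1118 counts without it. These are 74.9 and 54.8 CPM with ethanol against 67.3 and 86.9 CPM without it. It ranked between 176 and 213 by count among the 1409 to 1610 miRNAs with a count in a library. miR-199a-3p, next at 26.4 CPM, ranked between 250 and 290, and miR-199b-3p followed at 13.2 CPM. The ranges of these 3 over the libraries did not overlap, although the step from miR-199a-3p to miR-199b-3p follows from the division of shared reads.

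The next 3 could not be ordered, since their ranges overlapped. Averages were 1.37 CPM for miR-199b-5p, 1.35 CPM for miR-199a-5p and 0.947 CPM for miR-214-3p. miR-199a-5p had 32 and 34 counts with ethanol against 25 and 8 counts without it. For miR-199b-5p there were 32 and 31 counts with ethanol against 22 and 14 counts without it. miR-214-3p, which is transcribed with miR-199a from DNM3OS, had 32 and 14 counts with ethanol against 11 and 13 counts without it. The highest library was 3.41 times the lowest for miR-199a-5p, 2.21 times for miR-214-3p and 1.71 times for miR-199b-5p, against 1.58 times for miR-143-3p.

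The remaining 4 did not pass the filter on low counts. They entered a test only with no filter or, for 1 of them, without unexposed replicate 2. With no filter all 10 were tested in edgeR and 0 had an unadjusted P under 0.05, against 94 of all 1825 miRNAs tested. miR-145-5p, described as a main regulator of smooth muscle identity, had 3 counts in both exposed libraries and 6 and 3 counts in the unexposed libraries, at or under the floor in 3 of the 4. miR-145-3p had 7 and 10 counts with ethanol against 7 and 5 counts without it. miR-143-5p had 6 and 5 counts with ethanol against 2 and 4 counts without it. miR-214-5p was at 3 and 0 counts with ethanol against 2 and 0 counts without it, where 0 counts were read against the floor of 3 counts, a share of 0.121 CPM in exposed replicate 2 and of 0.248 CPM in unexposed replicate 2. Their averages ran from 0.418 CPM for miR-145-3p to 0.072 CPM for miR-214-5p, with ranges that overlapped from each to the next.

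All 10 together took 0.00918% to 0.0139% of a library's counts, and miR-143-3p gave 55.6% to 70.5% of that sum. The summed level was 123 and 93.7 CPM with ethanol against 121 and 123 CPM without it, or 108 ± 20.4 (SD, n = 2) against 122 ± 1.49 (SD, n = 2). Exposed replicate 1 lay between the unexposed libraries, so the groups overlapped. As shares of the library the sums were 139 and 91.8 CPM with ethanol against 102 and 131 CPM without it. There the exposed libraries were the highest and the lowest, so the small unexposed SD held after TMM scaling only. A list of neuronal miRNAs, 9 of whose 10 names were found in the table, took 35.3% to 41.5% of the counts. Whether the members mark mesenchymal cells in these cultures was not tested. Among them miR-145-5p, described above for smooth muscle, was at the floor in 3 libraries and at 6 counts in the other. Higher levels were found for miR-143-3p, at 54.8 to 86.9 CPM, and summed miR-199-3p, at 32.7 to 47.5 CPM. With levels this far apart, the members are called here by their genes and not by a cell type.

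The arms of each precursor were present in unequal amounts, a ratio within a library that no scaling can move. The 3p arm gave 99.6% to 99.7% of the miR-143 reads in the 4 libraries. Of the reads from miR-199a and miR-199b together, the 3p arm gave 94.4% and 92.9% with ethanol against 92.3% and 95.03% without it. miR-214-3p gave 32 of 35 and 14 of 14 miR-214 reads with ethanol against 11 of 13 and 13 of 13 without it. In none of these did the exposed libraries separate from the unexposed ones.

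For miR-145 the 5p arm, usually named as its guide strand, had fewer counts than the 3p arm in each library. Its share was 3 of 10 reads (10.8 to 60.3%) and 23.1% (8.18 to 50.3%) in the exposed libraries. In the unexposed libraries it was 46.2% (23.2 to 70.9%) and 37.5% (13.7 to 69.4%). The exposed shares were the lower ones, but they rest on 8 to 13 reads per library and the intervals overlap widely, so no difference was detectable at this depth. miR-199a-5p and miR-199b-5p, unlike the 3p strands, were counted apart, and miR-199a-5p gave 50.0% and 52.3% of the miR-199-5p reads with ethanol against 53.2% and 36.4% without it. Each of these intervals holds 50%, and over the 4 libraries the copies had 99 counts each.

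**Figure D2:**
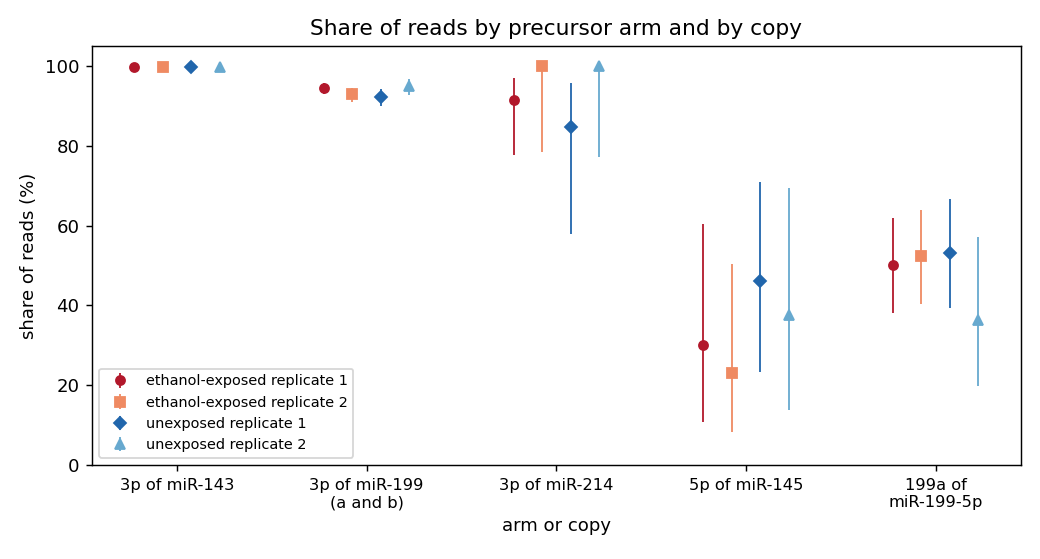
Share of reads in percent, with 95% Wilson intervals, for the named arm of each precursor and for miR-199a-5p among all miR-199-5p reads, with 1 marker per library. The 3p arm holds over 92% of the miR-143 and miR-199 reads in each library, while the miR-145 intervals are wide and overlap between exposed and unexposed cells.

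MIR143 and MIR145, both within CARMN, gave mature miRNAs of very different levels. miR-143-3p exceeded miR-145-5p 629-fold (interval 213.9 to 1852) and 445-fold (151 to 1310) in the exposed libraries. In the unexposed libraries it did so 132-fold (60.5 to 289.6) and 373-fold (127 to 1097). The lowest ratio, in unexposed replicate 1, rests on 6 counts of miR-145-5p and the others on 3, and the intervals overlap between the groups. To miR-145-3p, with 7 and 10 counts with ethanol and 7 and 5 without it, the gap was smaller in each library. For miR-199a and miR-214-3p the gap differed between the arms of miR-199a, neither of which can be assigned to DNM3OS alone. miR-199a-5p, the rarer arm, whose sequence also lies in MIR199A1, stood at 1.00 and 2.43 times miR-214-3p in the exposed libraries. In the unexposed libraries it stood at 2.27 and 0.615 times, with no separation of the groups. The commoner miR-199a-3p was further off, with 726 and 567 counts against 32 and 14 of miR-214-3p with ethanol. Without ethanol it had 373 and 281 counts against 11 and 13. These miR-199a-3p counts are a fixed division of reads shared by MIR199A1, MIR199A2 and MIR199B, so they do not measure the DNM3OS copy. miR-143-3p stood at 1.73 and 1.57 times summed miR-199-3p in the exposed libraries, and at 1.42 and 2.66 times in the unexposed libraries. Unexposed replicate 2 (2.37 to 2.97) thus had the highest ratio, with an interval that covers counting error only and not the spread between libraries. After TMM scaling it had the highest miR-143-3p and the lowest miR-199-3p level of the 4. As a share of the library, miR-199-3p was lowest in exposed replicate 2, at 34.2 CPM against 34.8 CPM in unexposed replicate 2. How far ligation or other steps of library preparation favour one strand was not tested.

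None of the 6 members with enough counts to be tested changed with ethanol by the test used. In edgeR's quasi-likelihood test across 863 miRNAs 0 of the 6 had an unadjusted P under 0.05, against 4.52% of all miRNAs tested. A fold change of 2 together with that P was reached by 0 of the 6 and by 2.32% of all tested. An adjusted p under 0.05 was reached by 0 of the 6 and by 0% of all tested (Benjamini-Hochberg). limma-voom and DESeq2 likewise gave 0 members with an unadjusted P under 0.05, of 31 and 28 miRNAs in all. The exposed and unexposed libraries overlapped for each of the 6, while over all tested miRNAs 33.4% had groups that did not overlap. The median log2 fold change was -0.055 over the 6 and -0.010 over all tested.

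miR-143-3p averaged 64.9 ± 14.2 CPM (SD, n = 2) with ethanol and 77.1 ± 13.8 CPM (SD, n = 2) without it. Its log2 fold change was -0.25 (standard error 0.27, 95% interval -0.87 to 0.37), and the unadjusted P was 0.380 by edgeR and 0.667 by the exact permutation test. With 2 libraries per group 0.3333 is the smallest two-sided p that the permutation test allows. Fold changes between 0.547 and 1.29 lie within this interval, so a 2-fold change in either direction lies outside it. The value was negative under each of the 15 alternatives, from -0.49 without exposed replicate 1 to -0.035 without exposed replicate 2.

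miR-199a-3p averaged 26.0 ± 3.89 CPM (SD, n = 2) with ethanol and 26.7 ± 6.92 CPM (SD, n = 2) without it. Its log2 fold change was -0.037 (standard error 0.29, 95% interval -0.71 to 0.64), and the unadjusted P was 0.902 by edgeR and 1 by the exact permutation test. The sign of this value turned with the scaling and with the libraries kept, so no direction can be given. miR-199b-3p, a fixed part of the same reads, gave -0.038 (95% interval -0.75 to 0.67) and is not a second observation.

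The 5p strands and miR-214-3p were less precise. miR-199a-5p averaged 1.33 ± 0.0904 CPM (SD, n = 2) with ethanol and 1.37 ± 1.06 CPM (SD, n = 2) without it, where replicate 1 was at 2.12 CPM and replicate 2 at 0.622 CPM. The log2 fold change of -0.021 (95% interval -1.21 to 1.17) became 1.09 without unexposed replicate 1 and -0.70 without unexposed replicate 2. miR-199b-5p averaged 1.27 ± 0.00323 CPM (SD, n = 2) with ethanol and 1.48 ± 0.549 CPM (SD, n = 2) without it, a difference of -0.21 on the log2 scale (95% interval -1.09 to 0.67) that became 0.22 without unexposed replicate 1. For miR-214-3p the exposed libraries were the ones far apart, at 1.27 and 0.575 CPM against 0.932 and 1.01 CPM in the unexposed cells. Its log2 fold change of -0.071 (95% interval -1.18 to 1.03) was 0.39 without exposed replicate 2 and -0.75 without exposed replicate 1. The unadjusted P of the 3 was 0.969, 0.603 and 0.885 in edgeR, with an exact permutation p of 1 for each. Each of these 3 intervals holds a 2-fold decrease, and those of miR-199a-5p and miR-214-3p hold a 2-fold increase too.

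**Figure D3:**
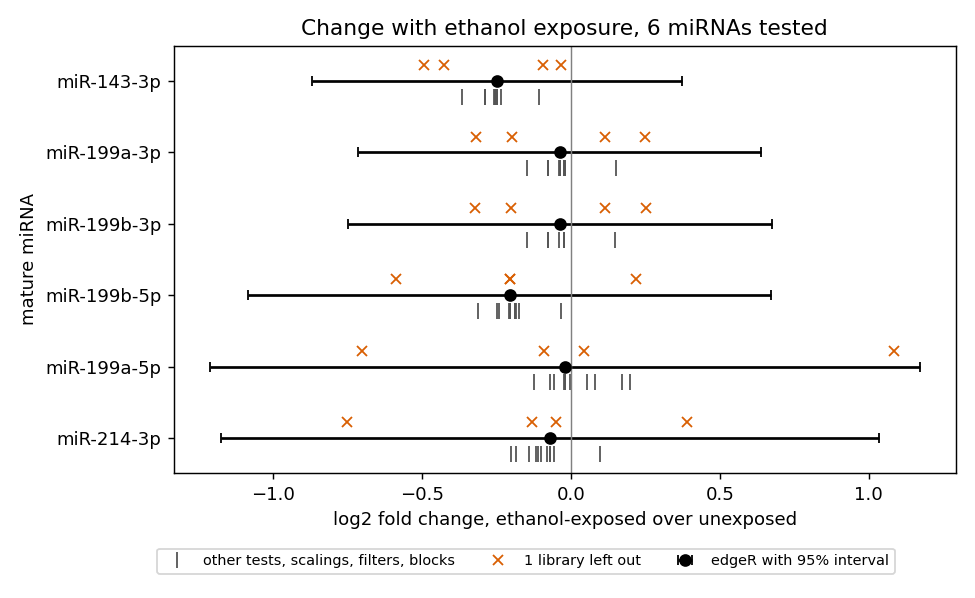
Log2 fold change of ethanol-exposed over unexposed cells for the 6 miRNAs tested. Black points are edgeR estimates with 95% intervals, grey ticks other tests, scalings, filters and replicate blocks, and orange crosses fits with 1 library left out. Every interval holds 0, and the fits without 1 library move miR-199a-5p between -0.70 and 1.09.

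Other miRNAs known from mesenchyme or muscle were read beside the members. Of the 12 listed, 10 were tested, and in edgeR 1 fell with an unadjusted P under 0.05, 0 rose and 0 had an adjusted p under 0.05. Over all miRNAs tested 4.52% had an unadjusted P under 0.05, in either direction. Their median log2 fold change was -0.12, against -0.010 over all miRNAs tested. The one that fell, miR-10a-5p of a HOX gene cluster, had 49 and 68 counts with ethanol against 29 and 587 counts without it. Its log2 fold change was -3.34 (standard error 1.06, edgeR P = 0.0137, adjusted p = 0.922, exact permutation p = 0.667, limma-voom P = 0.0951). The value became -0.089 without unexposed replicate 2, the library in which the TMM-scaled level of miR-143-3p was highest and that of miR-199-3p lowest. The summed level of the 12 was 1250 and 1480 CPM with ethanol against 2016 and 1288 CPM without it, of which miR-140-3p, known from cartilage but processed from a widely used host gene, gave 942 to 1039 CPM in the exposed and 853 to 1419 CPM in the unexposed libraries. Of the others, those given next were picked after their values were seen. miR-1-3p, a muscle miRNA, was at 175 to 401 CPM and thus above each of the 10 members in each library, and miR-133a-3p, which shares its transcripts, was at 1.24 to 1.59 CPM. miR-195-5p and miR-497-5p, cut from another shared transcript, were at 6.68 to 12.3 CPM and 0.452 to 0.714 CPM.

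**Figure D4:**
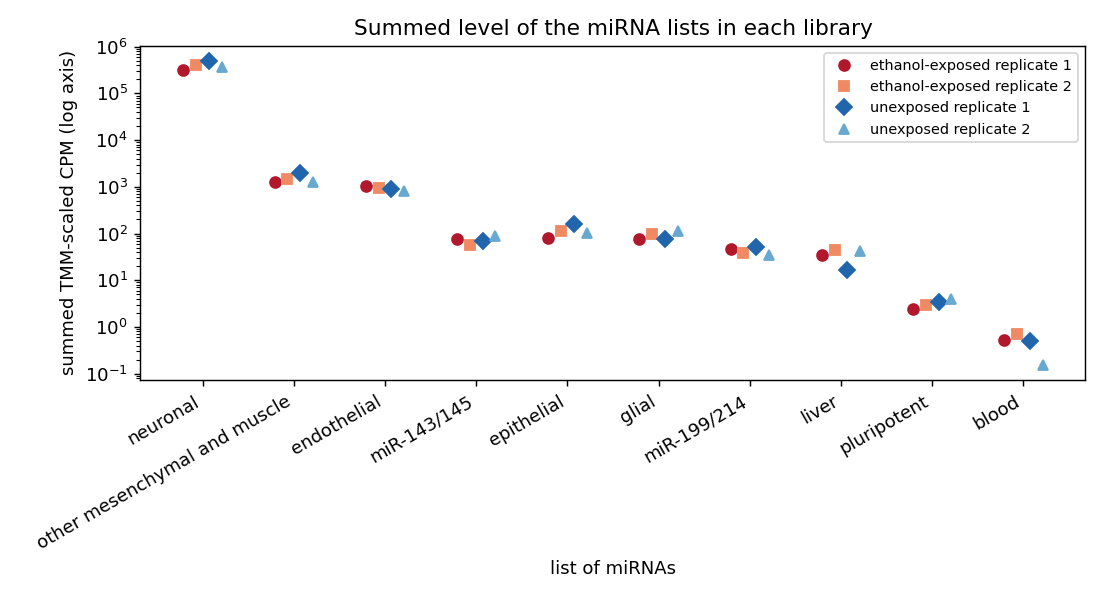
Summed TMM-scaled level of each list of miRNAs in each library, in CPM on a log axis, with 1 marker per library. The sums over miR-143 with miR-145 and over miR-199 with miR-214 lie over 3 orders of magnitude under the neuronal list, and exposed and unexposed libraries overlap in both.

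The miRNAs whose profile over the 4 libraries was most like that of the members were found by the root-mean-square difference of centred log2 CPM, as a description over 4 libraries. For miR-199 and miR-214 these were miR-488-3p (0.036), miR-34a-5p (0.046) and miR-3663-5p (0.058), against a median of 0.335 over the tested miRNAs. The median profile of the 5 tested members was 0.14 and -0.16 with ethanol against 0.28 and -0.26 without it. In this median replicate 1 was above replicate 2 in both groups. miR-199a-3p and miR-199b-3p, which are 1 measurement, each entered it. Not every member followed it, as miR-214-3p was at 0.932 and 1.01 CPM in the unexposed libraries. In the exposed libraries miR-199a-5p was at 1.27 and 1.40 CPM, and miR-199b-5p at 1.269 and 1.273 CPM. miR-143-3p was most like miR-5094 (0.032), miR-378g (0.065) and miR-411-5p (0.067), with a profile of 0.10 and -0.35 with ethanol against -0.06 and 0.31 without it. The median profile of miR-199 with miR-214 and the profile of miR-143-3p thus differed in order between the unexposed libraries. miR-214-3p itself had the order of miR-143-3p there.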

How the data were processed

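Small RNA was sequenced from 4 samples of H1 hESC-derived cortical interneurons. Libraries were made with the NEBNext small RNA kit, and CAP-miRseq trimmed and aligned the reads and assigned them to mature miRNAs. The authors deposited raw counts per mature miRNA, 1 column per library, without normalization. The genome build in the submitters' processing notes is hg19; the miRNA annotation release and the handling of reads that match several genes are not given in the sources used here. The counts carry no coordinates, so positions were matched by name to GENCODE 29 and RefSeq on GRCh38.

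Counts were fitted with edgeR 4.0.16 (R 4.3.3): filterByExpr by group (minimum count 10, minimum total 15), TMM factors, the quasi-likelihood test without covariates and Benjamini-Hochberg adjustment over 863 miRNAs. Its F statistic gave standard errors and intervals. The alternatives included DESeq2 1.42.0, limma 3.58.1 (voom), other scalings and filters, identical sequences merged, replicate blocks, and each library left out. The fit was tested on counts simulated with the spread of these data, where it recovered only part of the 2-fold changes. The chi-square statistic was 795 and 712 per degree of freedom between duplicates, far above counting error. The members and lists were chosen with earlier results of these data known; besides the members, the text names listed miRNAs with an unadjusted P under 0.05, markers, the 3 miRNAs closest in profile to each family, those sharing a seed, and, where it says so, others picked after their values were seen.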

Additional observations from a re-analysis of the deposited data

How the results depend on the processing

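With 0 of the 6 tested members at an unadjusted P under 0.05, that count stayed at 0 under all 15 alternatives, as did the count at an adjusted p under 0.05. Scaling by library size only moved the median log2 fold change of all miRNAs from -0.010 to 0.145, and upper quartile scaling moved it to -0.119. With library size only the values turned positive for miR-199a-3p (0.150), miR-199b-3p (0.149), miR-199a-5p (0.171) and miR-214-3p (0.098), which relative to that median are 0.0056, 0.0044, 0.026 and -0.046. miR-199a-5p was also positive with limma-voom (0.200), the replicate block (0.079) and the crossed replicate block (0.054). With 1 library left out, where the lone library is assumed to vary like the others, values ran from -0.318 to 0.249 for miR-199a-3p, -0.323 to 0.253 for miR-199b-3p, -0.703 to 1.09 for miR-199a-5p, -0.587 to 0.217 for miR-199b-5p and -0.751 to 0.388 for miR-214-3p. Those without unexposed replicate 1 were positive for miR-199a-3p, miR-199b-3p, miR-199a-5p and miR-199b-5p.

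Over all miRNAs tested, 39 had an unadjusted P under 0.05 in edgeR. The number was 94 with no filter (1825 tested), 25 with the replicate block, and 12 (without exposed replicate 1) to 109 (without unexposed replicate 2) with 1 library left out. At a fold change of 2 as well, it was 20, and 10 with DESeq2, 49 with no filter, 12 with CPM above 1 in at least 2 libraries and 10 to 44 with 1 library left out. Same-numbered libraries did not deviate together (correlation -0.187), so the numbers were not taken to pair cultures. The crossed replicate block, added after the data were seen for that correlation, gave 59 at an unadjusted P under 0.05. With library size only the split at that P moved from 22 higher and 17 lower to 30 and 7, and with upper quartile scaling to 15 and 28. The summed level of the members, 108 CPM in exposed and 122 CPM in unexposed cells, was 115 and 117 CPM with library size only, and 95.2 and 109 CPM with miR-199b-3p left out as the same sequence. Why the numbers of miRNAs called shifted between settings was not tested.

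Depth limits the 4 rare members most: at 10 counts per library or fewer they did not pass the main filter. With no filter all 10 members were tested in edgeR, with 0 at an unadjusted P under 0.05, against 94 of all 1825 miRNAs tested. Without unexposed replicate 2, 7 members entered the fit.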

Other observations

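Markers of other cell types were read in the same libraries. The calls among them stand beside the 4.52% of all miRNAs tested that had an unadjusted P under 0.05 in edgeR. The endothelial pair miR-126-3p and miR-126-5p summed to 1021 and 927 CPM with ethanol against 894 and 807 CPM without it, above the 10 members together. Of 4 blood cell miRNAs, miR-142-3p and miR-223-3p had 0 counts in every library, miR-142-5p had at most 1 count, and miR-451a had 12 and 16 counts with ethanol against 6 and 1 counts without it. The glial list summed to 75.7 to 116 CPM over the 4 libraries, of which miR-219a-2-3p gave 71.8 to 113 CPM. Its other miRNAs were low, with miR-338-3p at 2.20 to 3.53 CPM and miR-219a-5p at 0.254 to 0.698 CPM. The pluripotent list summed to 2.42 to 3.89 CPM, and liver miR-122-5p was at 16.5 to 44.2 CPM. Of the 5 tested in the glial, pluripotent and liver lists and 2 tested in the endothelial pair, 0 had an unadjusted P under 0.05 in edgeR. The 6 epithelial miRNAs of the miR-200 family and miR-205 summed to 81.1 and 112 CPM with ethanol against 163 and 101 CPM without it, and 1 of the 4 tested, miR-200a-3p, fell by 0.70 on the log2 scale (standard error 0.30), with an unadjusted P of 0.0487 in edgeR (adjusted p 0.922, exact permutation p 0.3333). Without any one library its P was 0.0507 or more, and it was 0.112 with the replicate block, 0.0921 with DESeq2, 0.194 with library size only and 0.0570 with no filter. Of the 9 neuronal miRNAs, miR-124-3p rose, with 5405 and 3362 CPM with ethanol against 2947 and 2190 CPM without it, which is 0.77 on the log2 scale (standard error 0.30), and an unadjusted P of 0.0316 (adjusted p 0.922, exact permutation p 0.3333). The call was lost without exposed replicate 1 (0.39, with a P of 0.374 in edgeR) and without unexposed replicate 2 (0.53, with a P of 0.0663 in edgeR), while without unexposed replicate 1 the adjusted p was 0.0170. The median over the 9 was 0.086, and 4 of them had values below 0, namely -0.64 for miR-7-5p (edgeR P of 0.107, exact permutation p 0.3333), -0.26 for miR-218-5p, -0.23 for miR-9-5p and -0.029 for miR-129-5p. miR-10a-5p, of the mesenchymal and muscle list, had an adjusted p in edgeR of 1.39e-15 with no filter and of 6.91e-05 or less without any one of the libraries other than unexposed replicate 2, against 0.922 over all 4 libraries and 0.969 without unexposed replicate 2. The relation of these levels to the members was not tested.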
